A study of Homo sapiens with 6 samples.

Results

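The genes of the cytosolic ribosomal proteins were compared between AGS cells transfected with a negative control (NC) and AGS cells transfected with mimics of the microRNA miR-3648. Members were all listed genes named RPL or RPS with a number, with RPLP0, RPLP1, RPLP2 and RPSA, after removal of ribosomal S6 kinases, RPS27L, RPS19BP1 and read-through genes. This gave 81 of 11187 listed genes, and all 81 passed the filter of a mean of at least 1 FPKM over the 6 libraries. FPKM is the fragment count divided by transcript length and by the library's mapped fragments. The 81 comprised 31 proteins of the small subunit, 43 of the large subunit, the 3 stalk proteins of the large subunit and 4 paralogs, RPL7L1, RPL22L1, RPL26L1 and RPL36AL. The 77 genes other than the paralogs are called core genes here.

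AGS is an established epithelial line from a human gastric adenocarcinoma. Both groups were transiently transfected, and each held 3 libraries of total RNA. The labels used here give no dose, no time after transfection and no word on separate cultures, so p-values reflect library-to-library spread that may be technical. Because FPKM is scaled within each library, a change shared equally by every gene leaves no trace, and in bulk RNA fewer cells and less RNA per cell cannot be told apart. The question set by the labels is which genes differ with miR-3648 mimics, with NC as the control.

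Ribosomal proteins and ribosomal RNA form the particles that translate messenger RNA. Their genes are expressed in every growing cell, and most of their messenger RNAs begin with a pyrimidine tract, the 5′ terminal oligopyrimidine (TOP) motif, through which the kinase mTORC1 and the protein LARP1 adjust translation. Free ribosomal proteins such as RPL5 and RPL11 can bind MDM2 and thereby stabilise p53. Paralogs such as RPL22L1 and RPL36AL can take the place of the protein they resemble, whereas RPL7L1 is a nucleolar factor of large-subunit assembly.

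The transfected microRNA is shown first because its seed sets the sites looked for in the members. Its mature sequence in RefSeq (GRCh38.p14, chr21:8987026-8987046, plus strand) is printed with the seed, bases 2 to 8, in capitals.
hsa-miR-3648: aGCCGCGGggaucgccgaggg
The sites that pair with it are CCGCGGC (7mer-m8) and CGCGGCA (7mer-A1), which overlap each other and were searched on the transcript strand. None of the 81 members had either site in the 3′ UTR of its principal GENCODE 29 transcript. Were the members a random draw of genes, 0 of 81 would allow an underlying share of up to 3.70%. The share was 1.82% of 10132 tested genes that were not members. Members had short 3′ UTRs, with a median of 93 nucleotides against 1058.5 in the other genes. A site lay in the coding sequence of 6 members (7.41%, against 14.0% of the others), RPL8, RPL13, RPS15, RPS16, RPS19 and RPS26, and one lay in the 5′ UTR of 6 others, among them RPL15, RPL21, RPL27 and RPL29 (7.41%, against 15.5%).

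Pyrimidine tracts at the start of transcription are shown for the paralogs and for their partners RPL26, RPL22 and RPL36A. No start was available for RPL7, which RPL7L1 resembles. Also shown are 3 other core genes described below, RPS12, RPL41 and RPS19. Each line holds 15 bases before and 15 bases from the RefSeq start site on the transcribed strand (GRCh38.p14). For RPS19, which has several starts, the one with the longest run is shown. Capitals mark the longest run of a C followed by at least 4 letters that are each C or T, among runs that overlap the stretch from 5 bases before to 6 bases into the transcript. Runs elsewhere in a window stay in lower case.
RPL26, chr17:8383179-8383208, minus strand: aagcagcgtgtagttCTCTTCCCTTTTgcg
RPL26L1, upstream start, chr5:172958714-172958743, plus strand: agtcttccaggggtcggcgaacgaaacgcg
RPL26L1, downstream start, chr5:172958865-172958894, plus strand: ggcggggcggcggccacaaacccgcaggca
RPL22, chr1:6199581-6199610, minus strand: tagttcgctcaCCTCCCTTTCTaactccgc
RPL22L1, chr3:170870181-170870210, minus strand: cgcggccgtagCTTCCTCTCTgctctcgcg
RPL36A, chrX:101390996-101391025, plus strand: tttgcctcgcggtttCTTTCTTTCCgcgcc
RPL36AL, chr14:49620612-49620641, minus strand: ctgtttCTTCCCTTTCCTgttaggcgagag
RPL7L1, chr6:42879601-42879630, plus strand: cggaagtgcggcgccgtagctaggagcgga
RPS12, chr6:132814554-132814583, plus strand: gcgtgcggatgaggCCTCTTTCCCTgccgc
RPL41, chr12:56116618-56116647, plus strand: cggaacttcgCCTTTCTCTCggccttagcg
RPS19, chr19:41860240-41860269, plus strand: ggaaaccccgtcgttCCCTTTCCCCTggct
RPL26L1 and RPL7L1 had no such run in that stretch at their annotated starts, while RPL22L1 and RPL36AL had one of 10 and 12 letters. A start was available for 66 of the 81 members. A run of at least 5 letters overlapped that stretch, at any annotated start, in 54 of 62 core genes (87.1%), in 2 of 4 paralogs and in 35.0% of 8066 other tested genes. Among all 27239 genes outside the members with an available start, tested or not, the share was 32.0%. The search covered the transcribed strand only, and a run is a match of letters, not a measured TOP motif.

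Levels of the members spanned 55.9-fold, from a mean of 9.81 FPKM for RPL22L1 to 548 FPKM for RPS12, with a median of 110 FPKM. Among the highest levels were those of the small-subunit genes RPS12, RPS27 (500 FPKM) and RPS4X (428 FPKM) and of the large-subunit gene RPL13A (428 FPKM), which is often used as a reference gene in PCR. The lowest were RPL22L1, RPL7L1 (15.1 FPKM), RPS29 (15.2 FPKM), RPL26L1 (22.6 FPKM) and RPL14 (31.5 FPKM). Of the 77 core genes, 45 had a mean of at least 100 FPKM. GENCODE 29 names 1145 pseudogenes of 77 of the members, up to 91 for RPL23A, and reads can be shared between a gene and its copies. Levels between members are therefore uncertain.

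**Figure D1:**
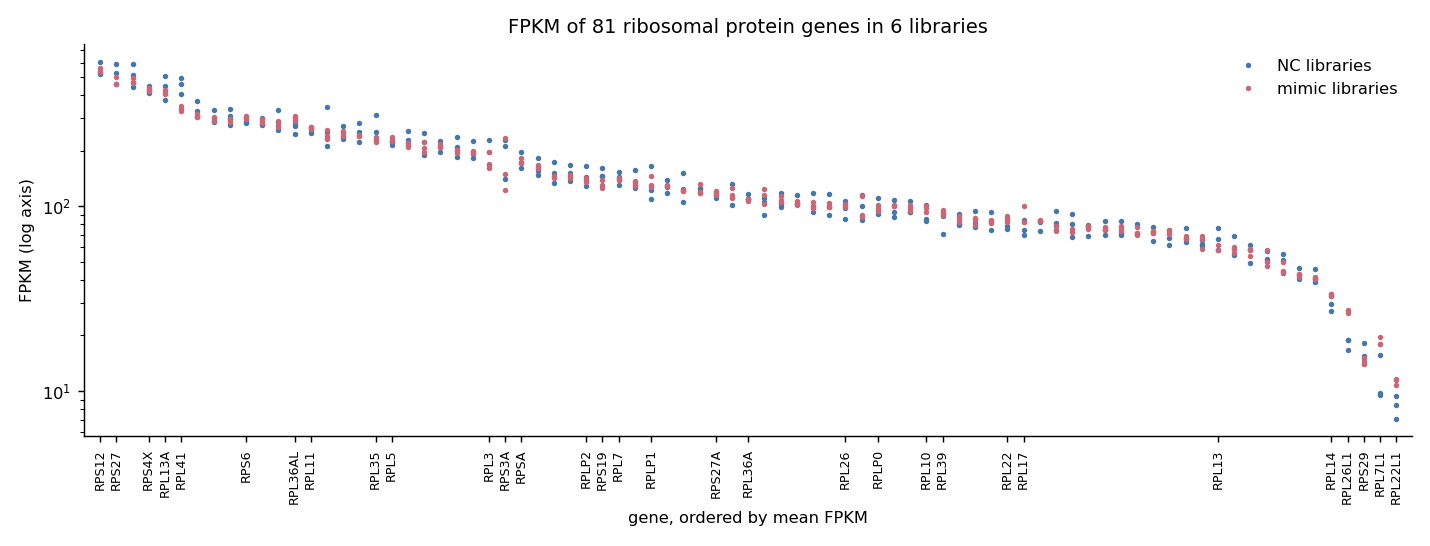
FPKM of each of the 81 genes (log axis) in the 3 NC and 3 mimic libraries, 1 point per library, ordered by mean. Genes described in the text are labelled. Core genes lie between a mean of 15.2 FPKM (RPS29) and 548 FPKM (RPS12), and RPL7L1, RPL22L1 and RPL26L1 are among the 4 lowest.

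As a whole the ribosomal protein genes lay close to their NC level in mimic libraries. Their FPKM summed to 12585, 14130 and 12048 in NC replicates 1, 2 and 3 and to 12808, 12474 and 12255 in mimic replicates 1, 2 and 3. NC replicate 2 was the highest and NC replicate 3 the lowest, so that all mimic values lay within the NC range. The members held 5.88%, 6.34% and 5.78% of the FPKM sum of listed genes in the NC libraries and 5.94%, 5.84% and 5.77% in the mimic libraries. On the log2 scale the summed FPKM was -0.04 in mimic relative to NC, and 0.02 without NC replicate 2. The small subunit (-0.05) and the large subunit with its stalk (-0.05) lay equally near, and the ratio of their sums stayed between 0.860 and 0.879 in the 6 libraries.

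NC replicate 2 stood apart in these genes. It was the highest of the 6 libraries for 58 of 77 core genes, against 25.3% of all tested genes and 50.2% of 552 other tested genes with a mean of at least 50 FPKM. Core genes lay at a median of 0.21 log2 units above NC replicates 1 and 3, and 70 of 77 were higher there. The 552 other highly expressed genes lay 0.13 higher in that library, and all tested genes 0.0025 higher. NC replicate 3 was the lowest library for 41 core genes. Pairwise, the median difference of core genes between NC replicates 2 and 3 (-0.26) was larger in size than that between any mimic pair, which lay between -0.05 and -0.02. The 3 mimic libraries were thus closer to each other than the NC libraries were. No cause of this spread was tested.

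**Figure D2:**
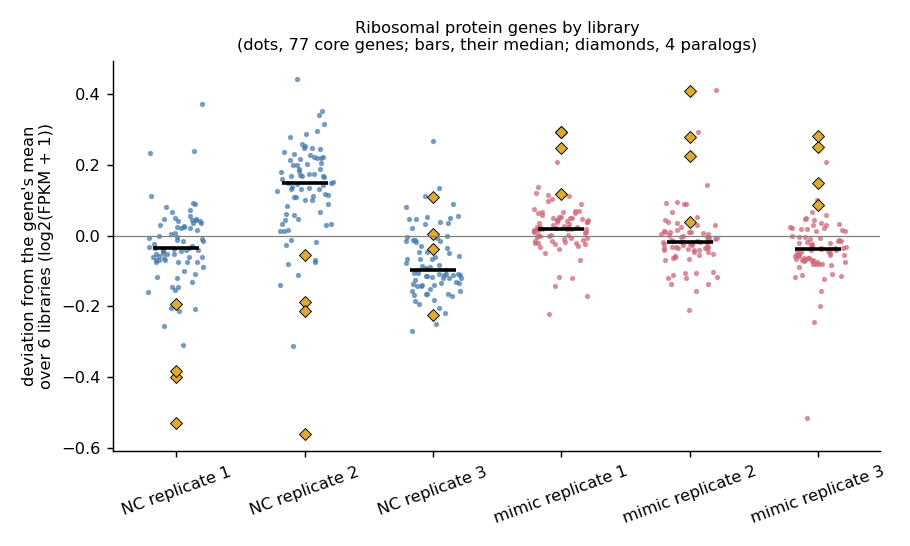
Deviation of each gene from its own mean over the 6 libraries, on the log2(FPKM + 1) scale, for 77 core genes (dots, with their median as a bar) and 4 paralogs (diamonds). The core median is 0.15 in NC replicate 2 and -0.10 in NC replicate 3, while paralogs lie above the core median in every mimic library.

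Fold changes are differences of group means (mimic minus NC) of log2(FPKM + 1), a scale that understates low genes, with limma fitted over 10286 tested genes and Benjamini-Hochberg adjustment. RPL26L1 was the only member called higher by limma, and no member was called lower. The share of tested genes called higher was 0.233% (24 genes), and 1 of 81 members was called higher (1.23%). The share called lower was 0.175% (18 genes), with 0 members. At an unadjusted p under 0.05 limma had 6 of 81 members (7.41%), which is below the 14.6% of all tested genes. They were the 4 paralogs with positive changes and RPL41 and RPS19 with negative ones.

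The log2 fold changes of core genes were small. Of 77 core genes, 59 (76.6%) lay within 0.1 log2 units of NC and 76 lay within 0.25, against 41.1% and 81.3% of all tested genes. Highly expressed genes that are not members gave 51.8% and 87.1%. The median was -0.02 over core genes, -0.01 over all members and -0.0046 over all tested genes. It was -0.02 for the small subunit (11 positive and 20 negative) and -0.02 for the large subunit (19 positive and 24 negative). Without NC replicate 2 the median over all members was 0.05, and with a GC correction 0.0030, so its sign is not fixed. The standard error of a member's fold change had a median of 0.08 and ranged from 0.05 to 0.27 (RPS3A), which sets the size of change that could be seen.

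**Figure D3:**
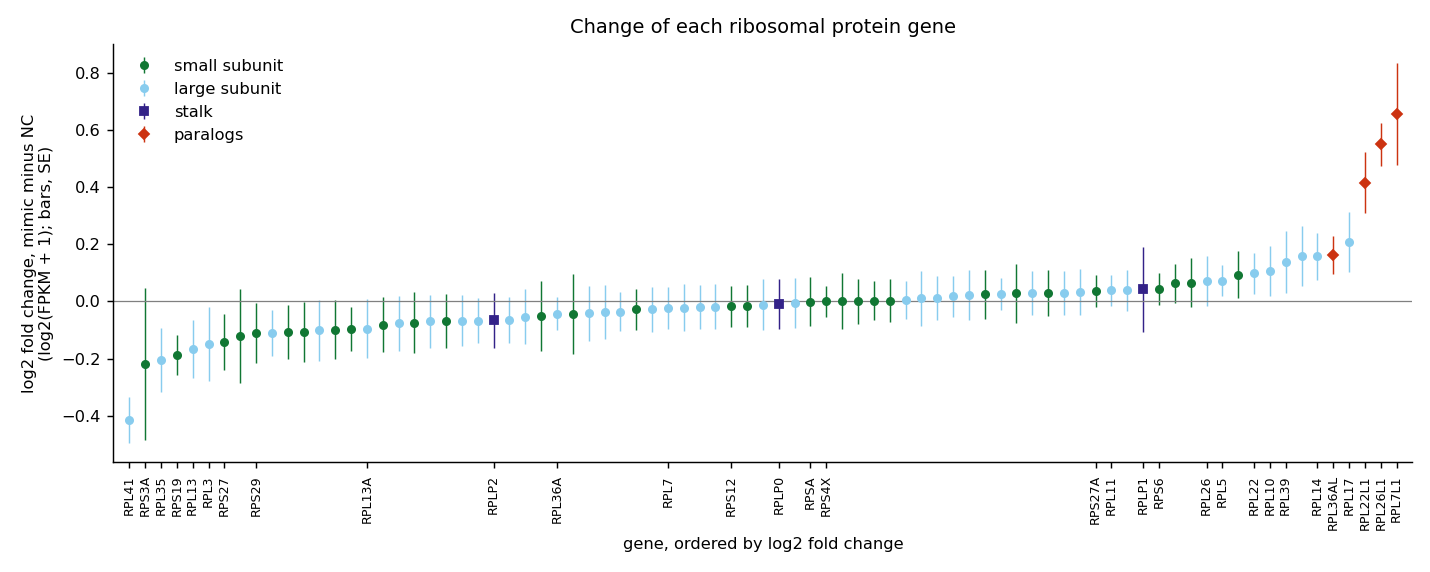
Log2 fold change, mimic minus NC, of each member with its standard error from limma (3 libraries a group), ordered from lowest to highest and coloured by class. Genes described in the text are labelled. RPL41 is lowest at -0.42, RPL26L1 (0.55) and RPL7L1 (0.65) are highest, and 59 core genes lie within 0.1 of 0.

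All 4 paralogs were higher in every mimic library than in any NC library. The share of tested genes with such non-overlapping groups was 8.68% for higher in mimic and 13.5% for lower. Over all 81 members there were 6 higher and 2 lower, so the members as a whole lay near or below these shares. Of the 77 core genes, RPL5 and RPL14 were higher and RPL41 and RPS19 lower.

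RPL26L1 encodes a protein nearly identical to RPL26 of the large subunit. Its gene (ENSG00000037241) spans chr5:172385732-172396774 in GRCh37 (plus strand), and no other listed gene overlaps it. RPL26L1 was at 16.8, 19.0 and 18.8 FPKM in NC replicates 1 to 3 and at 27.4, 27.1 and 26.6 FPKM in mimic replicates 1 to 3. The mimic libraries agreed closely and lay well above NC. The log2 fold change was 0.55 (SE 0.07, limma adjusted p = 0.043). The call was near the threshold: leaving out any 1 library other than NC replicate 3 gave limma adjusted p values of 0.087 to 0.23. Over all 18 alternatives it ranged from 0.0063 to 0.23, and the log2 fold change from 0.49 to 0.61.

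RPL26 itself, on chromosome 17, was measured at 85.7, 98.2 and 107 FPKM with the control and 104, 99.8 and 101 FPKM with the mimics. These groups overlapped, with a log2 fold change of 0.07 (SE 0.09, limma adjusted p = 0.71). RPL26L1 thus stood at 18.8% ± 1.07 of the RPL26 level in NC and at 26.6% ± 0.487 in mimic libraries (SD, n = 3 each). This ratio was 1.42-fold higher with the mimics.

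RPL7L1, on chromosome 6, showed the largest log2 fold change of the members. RPL7L1 was at 9.79, 9.56 and 15.8 FPKM with the control and 18.1, 19.7 and 17.9 FPKM with the mimics. NC replicate 3 lay between NC replicates 1 and 2 and the mimic libraries. The log2 fold change was 0.65 (SE 0.18, limma adjusted p = 0.21), and 0.87 without NC replicate 3 (limma adjusted p = 0.013, over all alternatives 0.013 to 0.54). RPL7, the large-subunit protein it resembles, was at 143 ± 11.2 FPKM with the control and 140 ± 2.53 FPKM with the mimics (SD, n = 3 each).

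RPL22L1 (chromosome 3) encodes a paralog of the RNA-binding protein RPL22. RPL22L1 was at 7.10, 8.38 and 9.40 FPKM with the control and 11.7, 11.5 and 10.8 FPKM with the mimics. The NC libraries spread more than the mimic libraries, with NC replicate 3 nearest to them. The log2 fold change was 0.42 (SE 0.11, limma adjusted p = 0.20, over the alternatives 0.017 to 0.52). RPL22 was at 75.2, 78.6 and 85.7 FPKM with the control and 88.4, 82.6 and 85.2 FPKM with the mimics, and its groups overlapped (log2 fold change 0.10, SE 0.07).

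RPL36AL (chromosome 14) encodes a protein nearly identical to RPL36A and is the one paralog measured above its partner. RPL36AL was at 247, 272 and 284 FPKM with the control and 307, 290.4 and 300.5 FPKM with the mimics. NC replicate 3 and mimic replicate 2 lay close to each other. The log2 fold change was 0.16 (SE 0.07, limma adjusted p = 0.34, over the alternatives 0.033 to 0.70). RPL36A on chromosome X was at 112 ± 4.32 FPKM with the control and 108 ± 1.70 FPKM with the mimics (SD, n = 3 each). The listed read-through gene RPL36A-HNRNPH2, which overlaps RPL36A on the same strand, ranged from 7.91 to 33.7 FPKM over the 6 libraries, with low and high values in both groups.

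In each of the 4 pairs the ratio of the paralog to its partner was higher in all 3 mimic libraries than in all 3 NC libraries. The RPL7L1 to RPL7 ratio was 8.21% ± 2.38 in NC and 13.2% ± 0.807 in mimic libraries, the RPL22L1 to RPL22 ratio 10.4% ± 0.807 and 13.3% ± 0.595, and the RPL36AL to RPL36A ratio 239% ± 18.4 and 276% ± 9.80 (SD, n = 3 each). These are 1.65-fold, 1.28-fold and 1.15-fold higher ratios. The 2-sided exact permutation test gave p = 0.1 for each (adjusted 0.1 over 4 pairs), the smallest value that 3 libraries against 3 allow. Groups that do not overlap always give this value, so it adds nothing to the non-overlap. The RPL26L1 ratio is a description, since this gene was known from earlier results to pass the limma test. A ratio within a library does not depend on the library's scale. A higher ratio describes unequal shifts in the measured levels of the paralog and its partner, not which of them changed. Whether reads shared between similar genes moved a ratio was not tested. RPL3L, RPL10L and RPL39L, the other paralogs looked for, were not analysed here.

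**Figure D4:**
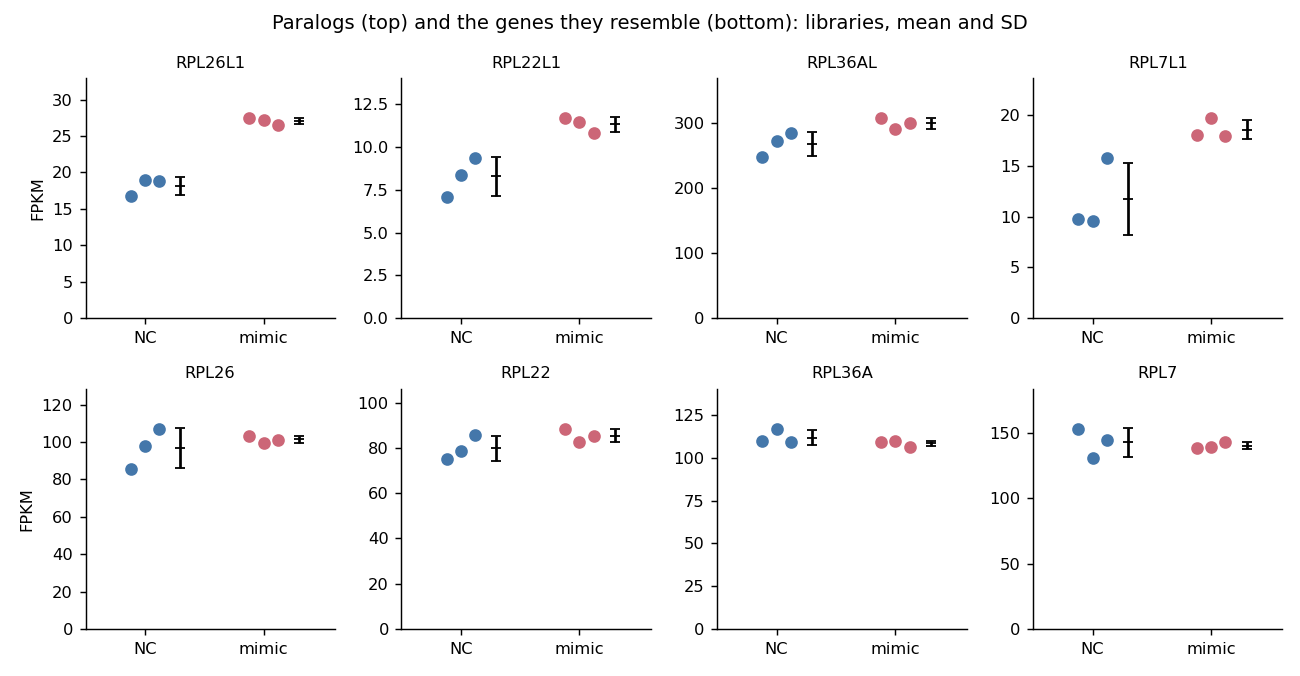
FPKM of 4 paralogs (top) and of the genes they resemble (bottom) in each NC and mimic library, with mean and SD (n = 3 each). Paralog groups do not overlap, as for RPL26L1 at 16.8 to 19.0 FPKM in NC and 26.6 to 27.4 FPKM in mimic libraries, whereas the groups of RPL26, RPL22, RPL36A and RPL7 do.

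RPL41, the smallest ribosomal protein, had the lowest fold change of the members. RPL41 was at 459, 495 and 404 FPKM with the control and 347, 338 and 329 FPKM with the mimics. Its lowest NC library still exceeded its highest mimic library. The log2 fold change was -0.42 (SE 0.08, limma adjusted p = 0.13), and -0.50 without NC replicate 3 (limma adjusted p = 0.022, over the alternatives 0.0100 to 0.41).

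RPS19, a small-subunit protein known from its mutation in Diamond-Blackfan anaemia, was at 146, 161 and 146 FPKM with the control and 139, 131 and 126 FPKM with the mimics. The groups did not overlap, but lay close (log2 fold change -0.19, SE 0.07, limma adjusted p = 0.29). RPL35 and RPL13 of the large subunit were lower on average, at 265 ± 42.5 and 228 ± 7.40 FPKM and at 67.0 ± 9.05 and 59.2 ± 2.04 FPKM in NC and mimic libraries (SD, n = 3). NC replicate 2 was the highest library for both, and their groups overlapped. RPL3, which lines the peptidyl transferase centre, was at 166, 227 and 196 FPKM with the control and 170, 198 and 161 FPKM with the mimics, also overlapping.

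RPS3A, a small-subunit protein, varied most among the core genes, with a coefficient of variation of 26.9% over the 6 libraries. RPS3A was at 228, 141 and 212 FPKM with the control and 150, 234 and 123 FPKM with the mimics. High and low values occurred in both groups, and the log2 fold change of -0.22 (SE 0.27) is within that spread. GENCODE 29 names 38 pseudogenes of RPS3A, so its level is uncertain.

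RPL17, a protein at the exit of the peptide tunnel, was at 70.3, 74.1 and 83.9 FPKM with the control and 82.2, 100 and 82.4 FPKM with the mimics (log2 fold change 0.21, SE 0.11). NC replicate 3 lay within the mimic range. The overlapping read-through gene RPL17-C18orf32 on the same strand was at 3.58 to 4.49 FPKM in 5 libraries and listed at 0 in mimic replicate 3. RPL14 was at 27.1, 29.6 and 32.6 FPKM with the control and 33.5, 33.5 and 32.7 FPKM with the mimics, which lay just above NC replicate 3 (log2 fold change 0.16, SE 0.08, limma adjusted p = 0.41).

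Both MDM2-binding proteins differed little between groups. RPL5 was at 214, 223 and 223 FPKM with the control and 237, 227 and 230 FPKM with the mimics (log2 fold change 0.07, SE 0.05, limma adjusted p = 0.54). RPL11 was at 259 ± 9.67 and 266 ± 3.65 FPKM (SD, n = 3), with overlapping groups. The S6 kinase substrate RPS6 was at 292 ± 12.1 FPKM with the control and 301 ± 6.21 FPKM with the mimics, with a log2 fold change of 0.04 (SE 0.06). RPS27A, which is made as a fusion with ubiquitin, varied least of all members, between 112 and 121 FPKM over the 6 libraries, a coefficient of variation of 2.73%.

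The stalk proteins recruit translation factors to the ribosome. RPLP0, also a common reference gene, was at 95.3, 111 and 90.6 FPKM with the control and 101, 94.9 and 97.9 FPKM with the mimics (log2 fold change -0.01, SE 0.09). RPLP1 was at 132 ± 28.8 FPKM with the control and 134 ± 9.84 FPKM with the mimics, and RPLP2 at 146 ± 18.6 and 139 ± 3.67 FPKM (SD, n = 3 each). NC replicate 2 was the highest library for all 3. The reference gene RPL13A was at 447, 506 and 379 FPKM with the control and 424, 408 and 404 FPKM with the mimics, so its NC spread exceeded the difference between groups (log2 fold change -0.10, SE 0.10).

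Other named members also had overlapping groups. RPS12 was at 552 ± 46.5 FPKM with the control and 544 ± 14.8 FPKM with the mimics, and RPS27 at 526 ± 66.7 and 474 ± 23.7 FPKM (SD, n = 3 each). NC replicate 2 was highest in both. RPS4X, encoded on the X chromosome, was at 428 ± 18.0 and 428 ± 7.02 FPKM, and RPSA, also known as a laminin receptor, at 176 ± 18.7 and 176 ± 5.75 FPKM. RPL39 and RPL10 were at 84.4 ± 12.1 and 92.3 ± 3.21 FPKM and at 90.4 ± 9.60 and 97.1 ± 3.73 FPKM, and RPS29 at 15.9 ± 2.17 and 14.6 ± 0.548 FPKM. Over all 81 members the median coefficient of variation was 7.38%, against 8.33% in the 552 other highly expressed genes.

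The change of the members ran against the GC content of their transcripts, as it did over all tested genes. Spearman's rho across genes was -0.45 over 81 members, -0.40 over the 77 core genes and -0.50 over 10213 tested genes, as a description, since genes share the same libraries and are not independent. Among the 25 core genes of highest GC content (52.3% to 64.6%), 4 had positive fold changes, with a median of -0.07. Among the 25 of lowest GC content (40.6% to 47.5%), 13 were positive, with a median of 0.0053. The paralogs had GC contents of 42.4% (RPL36AL), 42.6% (RPL22L1), 45.4% (RPL7L1) and 48.1% (RPL26L1), all below the core median of 49.5%. With a GC correction alone RPL26L1 was called (log2 fold change 0.55). With replicate number also in the model, no member was called. The log2 difference of the paralog ratio was 0.76 with the GC correction and 0.73 without it for RPL7L1. In the same order it was 0.50 and 0.50 for RPL26L1, 0.36 and 0.36 for RPL22L1, and 0.16 and 0.21 for RPL36AL.

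**Figure D5:**
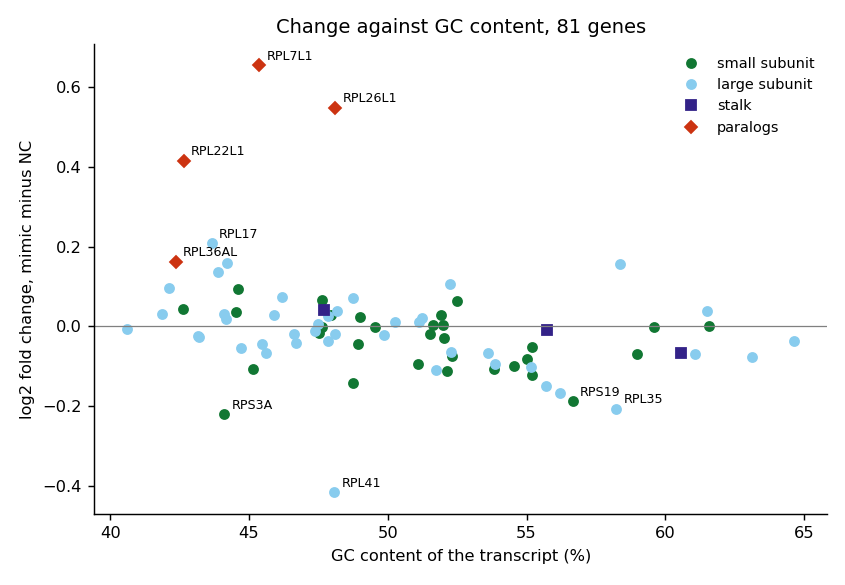
Log2 fold change, mimic minus NC, against GC content of the principal GENCODE 29 transcript for the 81 members. Most core genes of over 52.3% GC lie below 0, and RPL7L1, RPL26L1, RPL22L1 and RPL41 lie away from the other members.

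Related genes outside the naming rule were read from lists chosen with earlier results known. FAU, which encodes RPS30 as a fusion protein, and the small-subunit scaffold RACK1 had log2 fold changes of 0.10 and -0.09, and neither was called by limma (adjusted p = 0.62 and 0.64). FAU was at 50.6, 58.6 and 48.2 FPKM with the control and 56.8, 57.5 and 53.6 FPKM with the mimics. Here too NC replicate 2 was highest and NC replicate 3 lowest.

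Of 26 tested messenger RNAs of other TOP genes, such as elongation factors, none was called by limma (2 with an unadjusted p under 0.05, against 14.6% of all tested genes, median log2 fold change 0.0013). The nucleolar chaperone NPM1 was at 204 ± 25.1 FPKM with the control and 242 ± 5.16 FPKM with the mimics, the initiation factor EIF4B at 77.7 ± 3.50 and 68.9 ± 1.73 FPKM, and NACA at 13.1 ± 1.09 and 14.7 ± 0.361 FPKM (SD, n = 3 each). The groups of NPM1 and EIF4B did not overlap. In NC replicate 2 this list lay 0.03 above the other NC libraries, against 0.21 for core genes.

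Among 25 regulators of TOP messenger RNAs and mTORC1, none was called by limma (4 with an unadjusted p under 0.05, against 14.6% of all tested genes, median -0.04). EIF4EBP2, a repressor of the cap-binding factor eIF4E, was at 27.0, 27.4 and 24.7 FPKM with the control and 19.9, 20.3 and 20.4 FPKM with the mimics. These groups were well apart (log2 fold change -0.37, SE 0.07, limma adjusted p = 0.13). The RNA-binding protein gene LARP4 was at 14.3 ± 1.82 and 19.4 ± 1.34 FPKM, and the initiation scaffold gene EIF4G1 at 42.0 ± 3.10 and 34.9 ± 2.72 FPKM (SD, n = 3 each). LARP1 was at 34.2 ± 3.81 and 29.5 ± 0.861 FPKM, with overlapping groups, a gene named outside the rule for its role.

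None of 32 tested chaperones, importers and assembly factors of ribosomal proteins was called by limma (2 with an unadjusted p under 0.05, against 14.6% of all tested genes, median 0.04). SBDS, which helps release eIF6 from the large subunit, was at 42.3, 43.2 and 49.5 FPKM with the control and 54.0, 59.7 and 59.9 FPKM with the mimics, without overlap (log2 fold change 0.36, SE 0.09, limma adjusted p = 0.18). HUWE1, a ubiquitin ligase, was at 16.9 ± 1.83 and 13.8 ± 0.362 FPKM, and the importer TNPO1 at 24.4 ± 3.68 and 28.7 ± 0.410 FPKM (SD, n = 3 each).

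Of 17 tested genes of the p53 response, none was called by limma (3 with an unadjusted p under 0.05, against 14.6% of all tested genes, median 0.03). RPS27L, a p53 target and paralog of RPS27 that the naming rule leaves out, was at 8.67, 9.38 and 11.4 FPKM with the control and 15.8, 16.4 and 11.9 FPKM with the mimics. NC replicate 3 and mimic replicate 3 nearly met (log2 fold change 0.53, SE 0.15, limma adjusted p = 0.21). SESN1 was at 9.02 ± 0.294 and 10.9 ± 0.289 FPKM and GDF15 at 83.8 ± 14.3 and 62.3 ± 4.11 FPKM (SD, n = 3 each), both p53 targets, with log2 fold changes of 0.25 and -0.41.

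In the median paralog NC replicate 3 lay 0.19 log2 units above the other NC libraries. NC replicate 1 lay further off, at -0.23 relative to the others, and NC replicate 2 at 0.04. Without NC replicate 3 limma called 7.76% of tested genes higher and 7.09% lower. RPL26L1, RPL7L1 and RPL22L1 were then the 3 members called higher and RPL41 the 1 called lower, of 81, which is below these shares. In the other 5 cases of leaving out 1 library, no member was called. Over the whole table, FPKM sums of listed genes ran from 208274 to 222947, and the depth of the libraries is unknown. Of 13 epithelial markers 12 were listed, with EPCAM at 177 to 206 and KRT18 at 186 to 239 FPKM, while 6 markers of fibroblasts, leukocytes and endothelium were listed of 22. The highest of these, LYZ, was at 3.69 to 5.50 FPKM. The listed epithelial markers were not all high, since CDH1, KRT7 and CLDN4 each had a lower mean than LYZ. The summed markers were 1037 to 1232 FPKM in NC and 1145 to 1160 FPKM in mimic libraries for epithelium, and at most 8.05 FPKM in any library for each other cell type.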

How the data were processed

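FPKM values of 11187 listed genes in 6 libraries (3 NC, 3 mimic) were used as the authors deposited them. Per the submitters' processing notes, reads were handled with cutadapt and StringTie 1.3.3 on GRCh37. The labels' protocols name TRIzol extraction and a stranded KAPA library kit. No aligner, annotation release or strand setting is stated in the sources used here. Among 312 genes below 0.5 FPKM in the lower of NC replicates 1 and 2, at most 3 shared a ratio to 4 digits, so whole reads could not be recovered and no counting interval is given. Values were transformed as log2(FPKM + 1), genes with a mean of at least 1 FPKM were kept (10286), and limma 3.58.1 in R 4.3.3 was fitted with an intensity trend at an adjusted p threshold of 0.05. The fit was also run on simulated libraries of independent normal values, with no outcome given here. Such a run cannot show the effect of shifts shared by the genes of a library. Paralog ratios used exact permutation over 20 assignments. Transcript properties came from GENCODE 29 (GRCh38), by Ensembl identifier, for 99.3% of tested genes. The microRNA and start sites came from RefSeq tables by name. Of the members, 7 overlap a listed gene on the same strand and 24 one on the other strand. Named members were those called, with the 8 smallest p, the 5 highest and 5 lowest levels, the 5 largest changes in each direction, paralogs with partners, and members with textbook roles; lists gave up to 3 each. A few genes that this rule or a list names are not reported here, though counts and sums include them. Members, lists and tests were chosen with earlier results of these data known. Alternatives were other pseudocounts, filters, scalings, variance models, weights, a GC correction, a replicate block and leaving out each library.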

Additional observations from a re-analysis of the deposited data

How the results depend on the processing

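The number of all genes called by limma was 42 of 10286. It was 1798 with library weights, 108 with GC correction, 11 with the replicate block and 11 with the block and GC correction together. Leaving out 1 library gave 8 to 1527, the highest without NC replicate 3. Of 81 members, 1 was called higher. This number was 0 with median scaling, without an intensity trend, with the replicate block, with the block and GC correction, and without the paralogs. It was 5 with library weights and 0 to 3 with 1 library left out. Members called lower numbered 0, and 1 with library weights and 0 to 1 with 1 library left out. Library weights also called 4 of 26 other TOP genes and 5 of 25 TOP and mTORC1 regulators. They called 7 of 32 chaperones and importers and 3 of 17 p53 response genes, against 1798 of all 10286 tested genes. Leaving out 1 library gave 0 to 4, 0 to 6, 0 to 6 and 0 to 4 in these lists. The highest numbers came without NC replicate 3, where limma called 14.8% of all tested genes. The cause of these differences was not tested. The limma adjusted p of RPL26L1 under the replicate block was 0.16. Deviations of same-numbered libraries correlated at 0.04, -0.04 and 0.07. The labels used here do not say whether replicate numbers pair the libraries, and these correlations cannot decide it. All 4 paralog ratios and the fold changes of the 4 paralogs and RPL41 kept their sign in every alternative run. The median change of the members turned positive with GC correction (0.0030) and without NC replicate 2 (0.05). Unknown depth, 3 libraries a group and shared reads among copies limit what could be seen.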
